A study of Drosophila melanogaster with 9 samples.

Results

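Fourth-stage allografts of the Notch tumour (N-T3) were compared with the sorted cells of the primary tumour (N-FACS), gene by gene. The members are all rows of that comparison's table that carry a gene symbol, 11449 of 12750, out of 13215 rows over the 3 tables of the series. The remaining 1301 rows of the table have no symbol and were left out. N-FACS consisted of 3 libraries of GFP-positive cells sorted from collagenase-treated larval brains 4 days after clones were induced, with 150 brains in each replicate. In these clones an actin flip-out driver expressed UAS-*NΔecd* together with GFP. N-T3 consisted of 3 libraries of GFP tumour masses from adult female *w1118* hosts. The masses were collected from 25 hosts in each replicate at 6 to 8 days after the fourth transplantation. First-stage allografts (N-T0, 3 libraries, 8 to 10 days after transplantation) are given side by side only. All 3 groups carry *NΔecd*, a Notch receptor without its extracellular domain, so the comparison holds no tumour-free control. Libraries were made from polyadenylated RNA. The actin driver is not specific to neural stem cells, every library pools many animals, and the masses were not sorted, so that adhering host tissue could be included. Per the study's methods, the tissue dissociated for N-FACS was the larval central nervous system, whereas single brain lobes were grafted. Stage, region of origin, larval or adult surroundings, enzymatic dissociation and sorting cannot be told apart in this design.

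The values are levels in mean normalized counts. The tables give for each gene the authors' base mean over the 6 libraries of a comparison, and no value per library. The authors' own standard errors and tests were set aside, so no spread between replicates and no test is given, and the depth of each library is unknown. Group levels were obtained by solving the 3 base means of each gene together, after the tables, which the authors normalized separately, had been brought to a common scale. This method has its own error, 0.64% for the factor that joins the tables with N-FACS and 2.52% for the factor that joins the table of N-T3 and N-T0. Ranges behind a log2 ratio show how it moves with these errors, and cover no biological variation. A level under 3 method errors, or under 3 normalized counts, was set to that floor, and the ratio is then a bound, for which the fold at the weaker end of the method range is given. Levels printed in pairs are those of N-FACS and then N-T3, unless the sentence names the group. In whole masses and sorted cells alike, fewer cells of a type and less RNA per cell cannot be told apart.

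Larval neural stem cells, the neuroblasts, divide asymmetrically into another neuroblast and a smaller daughter that goes on to make neurons and glia. Notch signalling is active in the neuroblast and silenced in the daughter, and forced Notch activity lets daughters keep or regain the neuroblast state. Masses grown in an adult abdomen are bathed in host haemolymph, which carries macrophage-like hemocytes and the secreted products of the fat body.

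About 3 in 4 genes lay within 2-fold of each other in the sorted cells and the allografts. Of the 7877 genes whose base mean was 30 or more, 5849 (74.3%) had a log2 ratio of N-T3 to N-FACS under 1 in size. At least 2-fold higher in N-T3 were 961 genes, 12.2% of those counted, and at least 2-fold lower were 1067, 13.5%. These shares are the background for every count of a list below. The median log2 ratio was 0.05, and the middle 50% of genes lay between -0.45 and 0.53. The lower side reached further: 620 genes were at or below -3 and 124 at or above 3. Its bounds also reach further, since the floor lay near 1% of the N-FACS level for genes of the sorted cells and at a larger share of the N-T3 level for genes of the masses. Of the counted genes, 227 were under the floor in N-T3 and 81 under it in N-FACS. A gene at 0 in either group passes the minimum only through the other, which bears on every count of a list below. For 473 genes the method range spanned the 2-fold limit. On the higher side *Mdh1* (1.00) lay just past the limit and *GstD1* (0.999) just short of it, and on the lower side *SERCA* (-1.001) and *Pmp70* (-0.996). The genes that were lower held 7.14% of all counts of N-FACS and 2.13% of those of N-T3, and the genes that were higher held 3.28% and 9.39%.

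**Figure D1:**
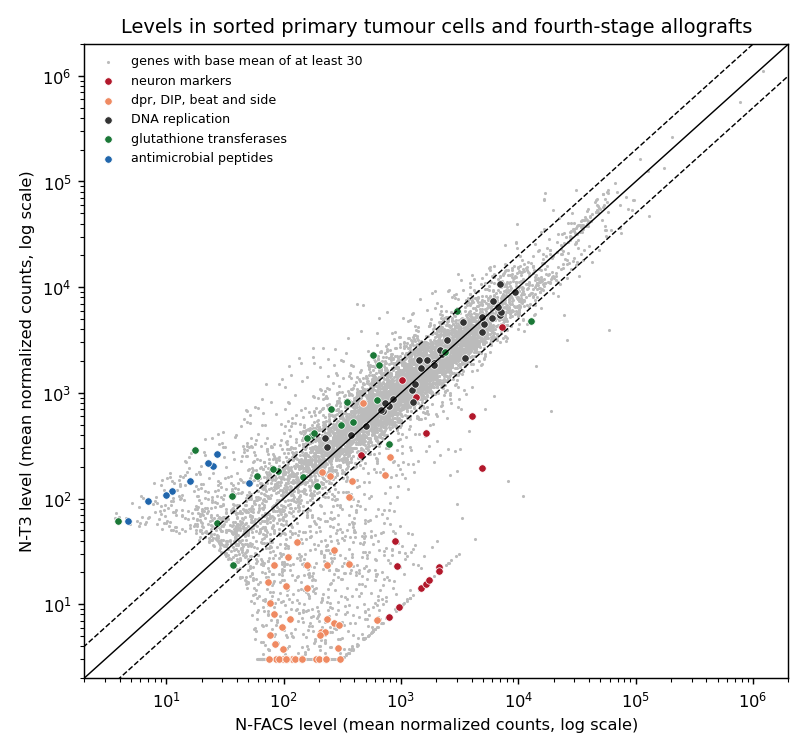
Each point is a gene whose base mean was 30 or more, with its N-FACS level on the x axis and its N-T3 level on the y axis, both in mean normalized counts on log scales. The solid line marks equal levels, the dashed lines 2-fold, and points on the lower diagonal edge or at 3 counts are at the floor. Neuron markers and the dpr, DIP, beat and side genes lie mostly below the lines, antimicrobial peptides above them, and DNA replication genes between them.

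Markers of neural stem cells were present in both groups, whereas those of neurons and glia were lower in N-T3, most of those fixed for this check being under the floor there. *dpn*, a Notch-induced Hes repressor of neuroblasts, was at 1928 normalized counts in N-FACS, 1769 in N-T0 and 1842 in N-T3. *wor*, a Snail-family factor, was at 9658 and 9139.6 in N-FACS and N-T3, and *mira*, the adaptor that carries fate determinants to the daughter, at 38984 and 54855. The proneural factor *ase*, which neuroblasts of most lineages express, was lower, at 2612 and 168, with a log2 ratio of -3.96, range -4.11 to -3.82. The neuronal markers *nSyb*, *brp* and *Syt1* were at 1727, 1619 and 1483 in N-FACS, and each was under its floor in N-T3 (16.9, 15.7 and 14.3). The glial markers *repo* and *wrapper* were at 553 and 69.1 in N-FACS and under their floors of 5.33 and 3 in N-T3, while *moody*, of the blood-brain barrier, was at 129 and 58.6. *elav*, given with the neuronal genes, and *moody* were above their floors in N-T3.

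Markers of host tissue were at low levels in the masses, and not all of them were higher there than in N-FACS. The plasmatocyte genes *Hml* and *NimC1* were at 515 and 205 in N-T3, and under their floors of 52.2 and 19.7 in N-FACS. *eater* was at 15 in N-T3 and under its floor of 3 in N-FACS, but *Pxn*, also of this set, was lower in N-T3, at 281 and 99.7 in N-FACS and N-T3. The fat body genes *Yp1* and *Yp2*, which encode yolk proteins, were at 101 and 118 in N-T3, and *Yp1* at 457 in N-T0. The lipid carrier *apolpp* was at 101 and 188. The muscle genes *Mhc*, *Act57B* and *Mlc2* were at 7.97, 8.29 and 23.2 in N-T3, against N-FACS levels of 10.6, 12.6 and 7.57, and the titin-like *bt* was lower, at 102 and 23.2. The midgut proteases *Jon65Aiii* and *alphaTry* were at 13.8 and 12.1 in N-T3, against 118 and 142 in N-T0. The hosts were female. The male dosage compensation RNA *roX1* was at 27739 and 27812, and *roX2* under 5 normalized counts in every group.

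Neuronal genes were lower in the masses. Of 16 neuron markers, all at a base mean of 30 or more, 12 were at least 2-fold lower and none higher, with a median log2 ratio of -5.004 against 0.05 over all 9057 genes whose base mean was 10 or more. *elav*, an RNA-binding protein of neurons, was at 4021 in N-FACS, 457 in N-T0 and 601 in N-T3, a log2 ratio of -2.74, range -2.82 to -2.67. Its paralogue *fne* was at 4892 and 194 (-4.66, range -4.83 to -4.51). The remaining 4 markers lay within 2-fold: *Nrg*, an L1-type adhesion molecule (-0.77), *comt*, the fly NSF ATPase (-0.53), *Snap25* (-0.82) and *stmA* (0.37).

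Synaptic genes were lower or within 2-fold. Of 23 counted members, 13 were lower and none higher, with a median of -1.22. *unc-13*, a vesicle priming factor, was at 5543 and 7523, and the chaperone *Csp* at 5441 and 3411. The vesicle glutamate transporter *VGlut* was at 1191 and under 11.4, and the active zone organiser *Rim* at 969 and under 9.32. *cpx*, the clamp of vesicle fusion, was at 2104 in N-FACS and 22.7 in N-T3.

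Ion channels and transmitter genes were mostly lower. Among 23 counted channels and pumps, 16 were lower and 1 was higher, with a median of -4.12. The voltage-gated sodium channel *para* was at 889 and 39.3, and the potassium channel *Shab* at 570.1 and under 5.48. The exception was *cac*, the presynaptic calcium channel, at 1780.1 and 4403 (1.31, range 1.20 to 1.42). Of 19 genes for transmitter synthesis and transport, 18 were lower, among them *Gad1*, which makes GABA, at 1024 and under 9.84. *Eaat1*, the glial glutamate transporter, was the 1 higher member, at 5601 in N-FACS, 21724 in N-T0 and 15264 in N-T3. Of 17 ligand-gated receptors 12 were lower, such as the GABA receptor *Rdl* (909 and under 8.7), and 2 nicotinic subunits were higher, *nAChRalpha5* (2918 and 8629) and *nAChRbeta2* (336 and 858).

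Neuropeptide genes and surface recognition molecules were low in the masses. Of 16 counted genes for neuropeptides and their processing, 13 were lower. *IA-2*, a phosphatase-like protein of dense-core vesicles on chromosome 2L (1008378 to 1048053 in BDGP6.54), was at 11025 in N-FACS and under its floor of 106 in N-T3, at least 103.9-fold lower. The precursor *Nplp1* was at 3095 and under 29.8, and *Dh31* at 316 and under 3.03. *Nplp2* was the 1 higher member, at 76.6 in N-T3 and under 15.2 in N-FACS. Of 50 counted dpr, DIP, beat and side genes, immunoglobulin-type proteins with which neurons recognise partners, 47 were lower, 18 of them under the floor in N-T3. Their median was -4.68, and *DIP-alpha* was the 1 member above 0 (478 and 796). Among 33 genes of adhesion and axon guidance, some of them shared with that list, 20 were lower and none was higher. *CadN*, the N-cadherin of axons, was at 3180 and 295, and *robo3* at 675 and under 6.68, while *PlexA* (-0.12), *Sema2a* (-0.08) and the netrin receptor *fra* (0.36) lay within 2-fold.

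Glial genes split. Of 18 counted members 11 were lower and 3 were higher, with a median of -2.51. *gcm*, the switch to glial fate, was at 206 and 10.5, and *alrm*, of astrocytes, at 472 and under 4.64. Higher were *Eaat1* (above), *pnt*, an ETS factor downstream of receptor tyrosine kinases, at 3609 and 7564, and the citrate transporter *Indy* at 165 and 372. *pnt* lay near the limit, with a range of 0.94 to 1.20, and was under it with some of the alternative factors.

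The neural stem cell list split, with 1 member higher, 6 lower and 11 within 2-fold of 18. The shares over all counted genes were 12.2%, 13.5% and 74.3%. Its median of -0.07 was taken over genes of self-renewal and of differentiation together. Higher was *stau*, an RNA-binding protein transported by *mira*, at 16576 in N-FACS, 37488 in N-T0 and 35254 in N-T3, near the limit (1.09, range 0.95 to 1.23). Within 2-fold lay factors of the self-renewing state, among them *klu* (0.45), *grh* (0.43), *insc* (0.38) and *tll* (0.04). Among the lower members were genes of the turn to differentiation. *pros*, the homeodomain protein that ends self-renewal in the daughter, was at 19127, 1285 and 676 in N-FACS, N-T0 and N-T3, a log2 ratio of N-T3 to N-FACS of -4.82, range -5.04 to -4.64. *nerfin-1*, which keeps young neurons from dedifferentiating, was at 3328, 318 and 65.4 (-5.67, range -6.10 to -5.34). *erm*, of intermediate progenitors, was at 366 and 43.6. *brat* (-0.76) and *numb* (-0.93), which restrain growth and Notch in the daughter, were within 2-fold.

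Temporal factors, which neuroblasts express in sequence as they age, went in both directions, with 3 higher and 4 lower among 11 counted. The early factor *Imp*, an RNA-binding protein, was at 9516, 7073 and 26568 in N-FACS, N-T0 and N-T3, a log2 ratio of N-T3 to N-FACS of 1.48, range 1.38 to 1.58. Its target *chinmo* was at 5158, 4157 and 10927 (1.08, range 0.99 to 1.17). *lin-28*, on chromosome 3L (5654681 to 5657384), was at 1226 in N-T3 and 655 in N-T0, and under its floor of 71.3 in N-FACS, at least 12.8-fold higher. *Syp*, which opposes *Imp* in late neuroblasts, was at 74832, 12365 and 32444. *cas* (6238 and 932), *Eip93F* (2348 and 1033) and *mamo* (962 and 31.1) were lower too, and *svp* (-0.23) and *br* (-0.12) were not past 2-fold. The levels of *Imp*, *chinmo* and *Syp* in N-T0 were below those in both other groups.

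**Figure D2:**
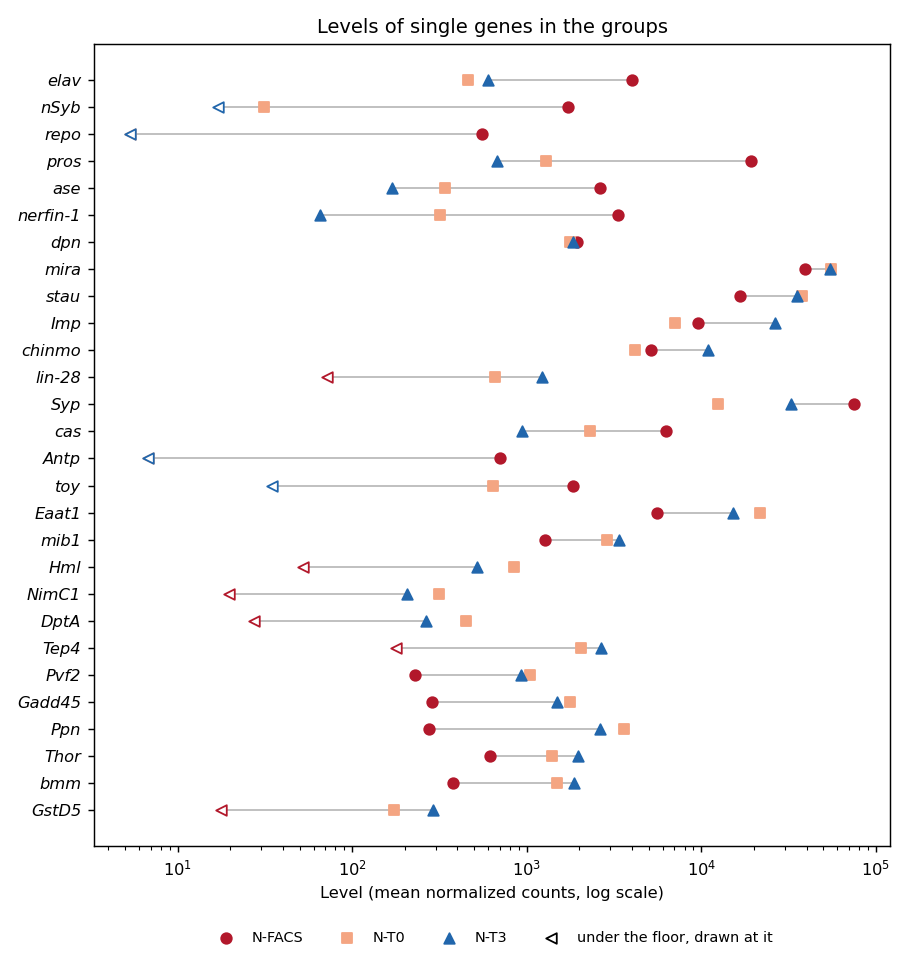
Levels of 28 single genes in N-FACS (circles), N-T0 (squares) and N-T3 (triangles), in mean normalized counts on a log x axis, with a line from N-FACS to N-T3. Open symbols mark levels under the floor, drawn at it, where those of N-T0 and N-T3 can overlie each other (*repo*, *Antp*). The symbols of *dpn* nearly coincide, neuronal and patterning genes have N-FACS at the right, and *lin-28*, *Hml*, *NimC1*, *DptA*, *Tep4* and *GstD5* have N-FACS at the left.

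Genes of the Notch pathway were mostly within 2-fold, at 13 of 17 counted, as were 74.3% of all counted genes. Their median was -0.35. *N* itself was at 40208 and 24347 (-0.72, range -0.80 to -0.65), and since *NΔecd* is made of Notch sequence, reads of the transgene and of the gene cannot be told apart there. Of the ligands, *Dl* was at 3547 and 2157, and *Su(H)*, the DNA-binding partner of Notch, at 671 and 573. The ubiquitin ligases that activate the ligand differed, with *neur* at 2225 and 773 and *mib1* at 1262 and 3378 (1.42, range 1.28 to 1.57). The metalloprotease *Kul* (311 and 48.3) and the co-activator *mam* (3038 and 1469) were the other lower members.

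All 11 counted members of the Enhancer of split list, direct targets of Notch together with the co-repressor *gro*, were below 0, and 7 of them were at least 2-fold lower. *E(spl)mgamma-HLH*, a target active in neuroblasts, was at 3894 and 2796 and *E(spl)mbeta-HLH* at 2835 and 1527, both within 2-fold. *E(spl)m8-HLH* was at 2179 and 749, *E(spl)m3-HLH* at 487 and 39.1, and the Bearded-type *E(spl)m6-BFM* at 281 and 6.48 (-5.44, range -5.81 to -5.14). Of 5 counted proneural genes 4 were lower, among them *emc*, the Id-type antagonist of the proneural proteins, at 5194 and 696, and *l(1)sc* at 91.7 and 19.5. Their common partner *da* was at 3131 and 3146.

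Hox genes, which give neuroblasts of the thorax and abdomen their position along the body, were under the floor in N-T3 for the 5 of 8 members counted. With N-T3 near 0, a member could pass the minimum only through N-FACS, so this count follows from the filter. *Antp*, on chromosome 3R (6896253 to 6999228), was at 701 in N-FACS, *Ubx* at 495 and *abd-A* at 430, with floors of 6.71, 4.78 and 4.12. *Scr* was at 64.1 and *Abd-B* at 84.4 in N-FACS. The grafts were single brain lobes, whereas N-FACS came from larval central nervous systems. The part of this difference in the values of patterning genes was not tested. Members of the retinal determination network, which also pattern the brain, split evenly. *eya* (2559 and 2731), *Optix* (1803 and 2895), *so* (668 and 959.9) and *hth* (6617 and 3372) lay within 2-fold, the last near the limit. *tsh* (2682 and under 26), *toy* (1839.9 and under 34.5), *dac* (656 and 7.24) and *ey* (494 and 8.38) were lower. *toy* was still at 641 in N-T0.

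Antimicrobial peptide genes, whose products are secreted into the haemolymph after infection, were higher in the masses. All 9 members whose base mean was 30 or more were higher, 7 of them against an N-FACS level under the floor. Of 29 members in the table, those with so low a level in N-FACS could pass the minimum only through N-T3, so this count follows in part from the filter. The Imd-dependent *DptA* was at 265 in N-T3 and 445 in N-T0, and under 27.1 in N-FACS, at least 9.61-fold higher. *AttC* (204, at least 7.92-fold higher) and *Mtk* (95.3, at least 13.6-fold higher) were alike in this. *AttB* was at 50.4 in N-FACS and 141 in N-T3, and its close copy *AttA* at 117 in N-T3, and the counting could have split reads between them. The secreted stress peptide *TotM* was at 221 in N-T3 and under 14.9 in N-FACS, and *TotA* at 127 and under 19.6.

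Components of the pathways that induce these peptides went in both directions. Of 18 counted Toll and Imd components 4 were higher and 4 lower, beside 12.2% and 13.5% of all counted genes. Their median was 0.70. *Rel*, the NF-kappaB factor of the Imd branch, was at 1170.3 and 2353, near the limit (1.01, range 0.89 to 1.13), and the kinase *IKKbeta* at 278 and 691. The receptor *Tl* (504 and 22.9), its ligand *spz* (147 and 8.79) and the factors *Dif* (181 and 37.5) and *dl* (82.6 and 24.4) were the 4 lower members, all of the Toll branch. JAK/STAT components were close to equal, with *hop* at 1509 and 1513, *Stat92E* at 1182 and 1175, *dome* at 711 and 589.7 and the feedback target *Socs36E* at 1578 and 1751.

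Of 16 counted hemocyte genes 6 were higher and 3 lower, with a median of 1.33 over 24. Besides *Hml* and *NimC1*, the phagocytic receptor *NimC4* was at 371 in N-T3, with 24.5 in N-FACS against a floor of 23.8. The GATA cofactor *ush* was at 860.4 and 1925. Members that neural and other cells also express differed less: *cher*, a filamin (0.94), the engulfment receptor *drpr* (0.40) and the integrin *mys* (-0.06). *vir-1* was lower, at 613 and 68.8. *Tep4*, a secreted thioester protein on chromosome 2L (19548507 to 19556451), was at 2659 in N-T3 and 2032 in N-T0, and under 178 in N-FACS, at least 14.8-fold higher. *Tep2* was lower (87.4 and 34.6). Summed over the hemocyte list, the level was 7169 in N-FACS and 10808 in N-T3, which is 0.036% and 0.054% of all counts. The sum includes members that other cells also express, such as *mys* (1727 and 1659) and *drpr* (1488 and 1959). It is therefore no measure of hemocyte content. Of the crystal cell genes, *PPO1* was at 10.6 and 37.4, *PPO2* at 62.3 and 47.9 and *lz* at 15.3 and under 3. The lamellocyte genes *PPO3* and *atilla* were at 97.1 and 33.8 in N-T3 against 24.5 and under 3.38 in N-FACS. The part of host hemocytes in these values was not tested.

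Of the fat body and yolk list 6 of 14 counted members were higher and none lower, beside 12.2% and 13.5% of all counted genes. The list includes genes at high levels in the sorted cells, so it is not specific to host tissue. The ferritin subunits *Fer1HCH* (5313 and 13251) and *Fer2LCH* (5922 and 12666), which overlap in the annotation so that their reads could be shared, had log2 ratios of 1.32 and 1.10, the second near the limit. *bmm*, the triglyceride lipase, was at 377 and 1849.9, and the fatty acid synthase *FASN1* at 8746 and 14664. The yolk protein genes *Yp1*, *Yp2* and *Yp3* were at 101 to 196 in N-T3 and at 457 to 999.6 in N-T0. Of genes listed for other organs, *Gasp*, of tracheal cuticle, was at 58.2 and 358, *Cp15*, of the eggshell, at 8.03 and 93.9, and *Zasp66*, of muscle, at 37.3 and 134. Others were lower, such as the tracheal regulator *trh*, at 78.7 and 10.9. Of 7 counted muscle genes 2 were higher and 2 lower, and of 4 counted tracheal genes 2 were higher and 1 lower. The part of host tissue in these values was not tested.

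Wound and JNK genes went both ways, with 4 higher and 5 lower of 19 counted, beside 12.2% and 13.5% of all counted genes. *Gadd45*, a stress sensor, was at 285 and 1479 (2.38, range 2.11 to 2.69), *Pvf2*, a growth factor of the PDGF and VEGF family, at 229.5 and 931, and the matrix protease *Mmp2* at 751 and 1929. *Mmp1*, a target of JNK, was at 527 and 20.6 (-4.68, range -4.88 to -4.49), and the TNF homologue *egr* at 644 and 270.4. The kinase *bsk* (-0.32) and its phosphatase and target *puc* (0.10) lay within 2-fold. In the basement membrane list 6 of 20 were higher and 5 lower, beside the same background shares. The collagen IV chains *Col4a1* (242 and 1094) and *vkg* (128 and 611), *LanA* (563 and 1809) and papilin, *Ppn* (275 and 2622), were higher. The laminin chain *wb* (317 and 156, near the limit at -1.03, range -1.12 to -0.93), the integrin *if* (58.7 and 8.53), *Pxn* and *Mmp1* were lower, and the perlecan *trol* was within 2-fold, also near the limit (-0.97).

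Many genes of detoxification enzymes were higher. Of 24 counted glutathione transferase and glutathione synthesis genes 14 were higher and 2 lower, and 24 of 28 measured were above 0 (median 1.09). *GstD5* was at 291 and under 17.6 in N-FACS, *GstD9* at 575 and 2292, and *GstT1* at 254 and 706. *GstZ2* (12747 and 4749.8) and *GstS1* (785 and 331) were lower. The summed level of the family was 23283 in N-FACS and 23664 in N-T3, with *GstZ2* the member of highest base mean. Of 19 counted cytochrome P450 genes 13 were higher, among them *Cyp6a17* (52.2 and 617), *Cyp9f3* (56.5 and 326) and *Cyp4g1*, the oenocyte enzyme of cuticular hydrocarbons (under 56.1 and 275). *Cyp4g15*, of glia and brain, was lower, at 62.5 and under 3. The adjacent genes *Ugt302K1* and *Ugt302C1* on chromosome 3R (11151026 to 11153849 and 11157098 to 11159744) were at 676 and 1206, under 48.3 and 91.4 in N-FACS. The antioxidant enzymes *Cat* (0.66), *Trxr-1* (0.50) and *Sod1* (-0.51) lay within 2-fold, as did 12 of 15 counted members of the reactive oxygen list. The oxidase *Nox* was the 1 higher member, at 46.1 and 278, and 2 members were lower, the lowest at -3.79.

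Autophagy and cell death genes were higher for some members. Of 24 autophagy and lysosome genes 5 were higher and none lower, with 20 above 0. The cargo adaptor *ref(2)P*, the fly p62, was at 1339 and 3976, and *Atg9*, a lipid scramblase, at 420.2 and 1087. *Atg8a*, the ubiquitin-like protein of the autophagosome, was within 2-fold, at 3883 and 6933. Among 15 counted apoptosis genes, 4 were higher and 3 lower, beside 12.2% and 13.5% of all counted genes. The higher ones included the caspases *Strica* (108 and 544) and *Dcp-1* (575 and 1446), with *p53* (298 and 657) and the inducer *hid* (31.7 and 64.5), the last near the limit (1.03, range 0.93 to 1.13). The lower ones were the inducers *rpr* (242 and 20.9), *grim* (109 and 14) and *skl* (409 and 43.5), neighbours on chromosome 3L. The inhibitor *Diap1* was at 4901 and 5352.

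Growth genes lay mostly within 2-fold, as did 74.3% of all counted genes. Of 19 insulin and TOR genes 16 did so, with *InR* at 2712 in N-FACS, 1391 in N-T0 and 3733 in N-T3. In that list 1 member was higher and 2 were lower, the lowest with a bound of -6.57 and under the floor in N-T3. *Thor*, the translational repressor 4E-BP that FOXO induces, was higher, at 612 and 1959 (1.68, range 1.53 to 1.83), and *ImpL2*, a secreted antagonist of insulin-like peptides, lower, at 2013 and 347. *Myc* was at 3776, 2006 and 5796 in N-FACS, N-T0 and N-T3 (0.62, range 0.54 to 0.69). Its antagonist *Mnt* was lower (934 and 361). Ribosome biogenesis factors were below 0 for 17 of 20 genes of their list, *Myc* included in it, with a median of -0.55. *Nopp140* was at 10205 and 4507 and fibrillarin, *Fib*, at 8542 and 5538.

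Genes of the protein synthesis machinery and other large complexes lay mostly within 2-fold. Cytosolic ribosomal proteins were above 0 for 70 of 84 genes, with a median of 0.19, and their share of all counts was 14.2% in N-FACS and 16.5% in N-T3. The elongation factors *eEF1alpha1* (205046 and 266342) and *eEF2* (109537 and 163692) were higher by 0.38 and 0.58 on the log2 scale, the largest and third-largest gains in counts of any gene. Mitochondrial ribosomal proteins had a median of 0.00 over 72 genes, with 36 above and 36 below 0. Of 34 proteasome genes 31 were below 0, with a median of -0.48, and the 1 higher member was *Prosbeta2R2* (227 in N-T3, under 14.5 in N-FACS). Nuclear genes of oxidative phosphorylation were below 0 for 44 of 56 (median -0.25), and genes of the mitochondrial genome for 11 of 13 (median -0.60). *mt:CoI* was at 173542 and 132829 and *mt:ND5* at 49001 and 22314, against 325057 for *mt:CoI* in N-T0. The mitochondrial ribosomal proteins, the replication genes and the JAK/STAT list took a median below 0 where the scale was moved so that the median of all genes was 0, which shifted list medians by between -0.14 and 0.

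Chaperones lay mostly within 2-fold, as did 74.3% of all counted genes. Among 28 counted heat shock and chaperonin genes 4 were at least 2-fold lower and none higher, beside 13.5% and 12.2% of all counted genes. The summed level was 500000.3 in N-FACS and 330971 in N-T3. *Hsp83*, the fly Hsp90, was at 129707 and 47091 (-1.46, range -1.54 to -1.38), *Hsp27* at 32669.9 and 12866, and the cofactor *stv* at 597 and 26.5, while the constitutive *Hsc70-4* was at 126416 and 126150. The copies of *Hsp70* are near-identical and the counting could have split their reads, so no value is given for them. Genes that respond to tissue dissociation were lower for 5 of 16, beside 13.5% of all counted genes, with a median of -0.58. They include the activity-induced *Hr38* (638 and 12), *sr* (629 and under 6.05) and *CG14186* (2079 and under 19.9). N-FACS was dissociated before sorting, and the part of that step in these values was not tested.

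Cell cycle genes were close to equal in both groups. None of 32 DNA replication genes was past 2-fold, and their median was 0.02. *PCNA* was at 9395 and 9036 and *Mcm2* at 6102 and 7342. Of 38 mitosis genes 36 lay within 2-fold, with *polo* at 9475 and 10971 and *CycB* at 10145 and 5875. The 2 lower ones were *stg*, the Cdc25 phosphatase, at 4645 and 2022, and *Cdk1*, at 3284 and 1509. *dap*, the Cdk inhibitor that accompanies cell cycle exit, was lower, at 1078 and 157 (-2.78, range -2.88 to -2.69).

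Germline and ecdysone genes departed from the median of all genes. Of 17 counted genes of the germline and the piRNA pathway, which silences transposable elements, 7 were higher and 2 lower. The shares over all counted genes were 12.2% and 13.5%, and 17 of 20 measured genes of this list were above 0. *spn-E* was at 657 and 2429.7 (1.89, range 1.71 to 2.07), *AGO3* at 58.1 and 185, *krimp* at 193 and 544, and *bgcn* at 18 and 85.2, while *bam*, the differentiation factor that acts with *bgcn*, was at 269.7 and 29.6. Of 13 counted ecdysone response genes 6 were lower and 2 higher. *ImpE1* was at 994 and under 9.57, and *Eip74EF* at 379 and 11.9. The receptor subunit *EcR* was at 1699.8 and 3424, near the limit, its partner *usp* at 1210.2 and 1247, and the transporter *E23* at 45.2 and 317.

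**Figure D3:**
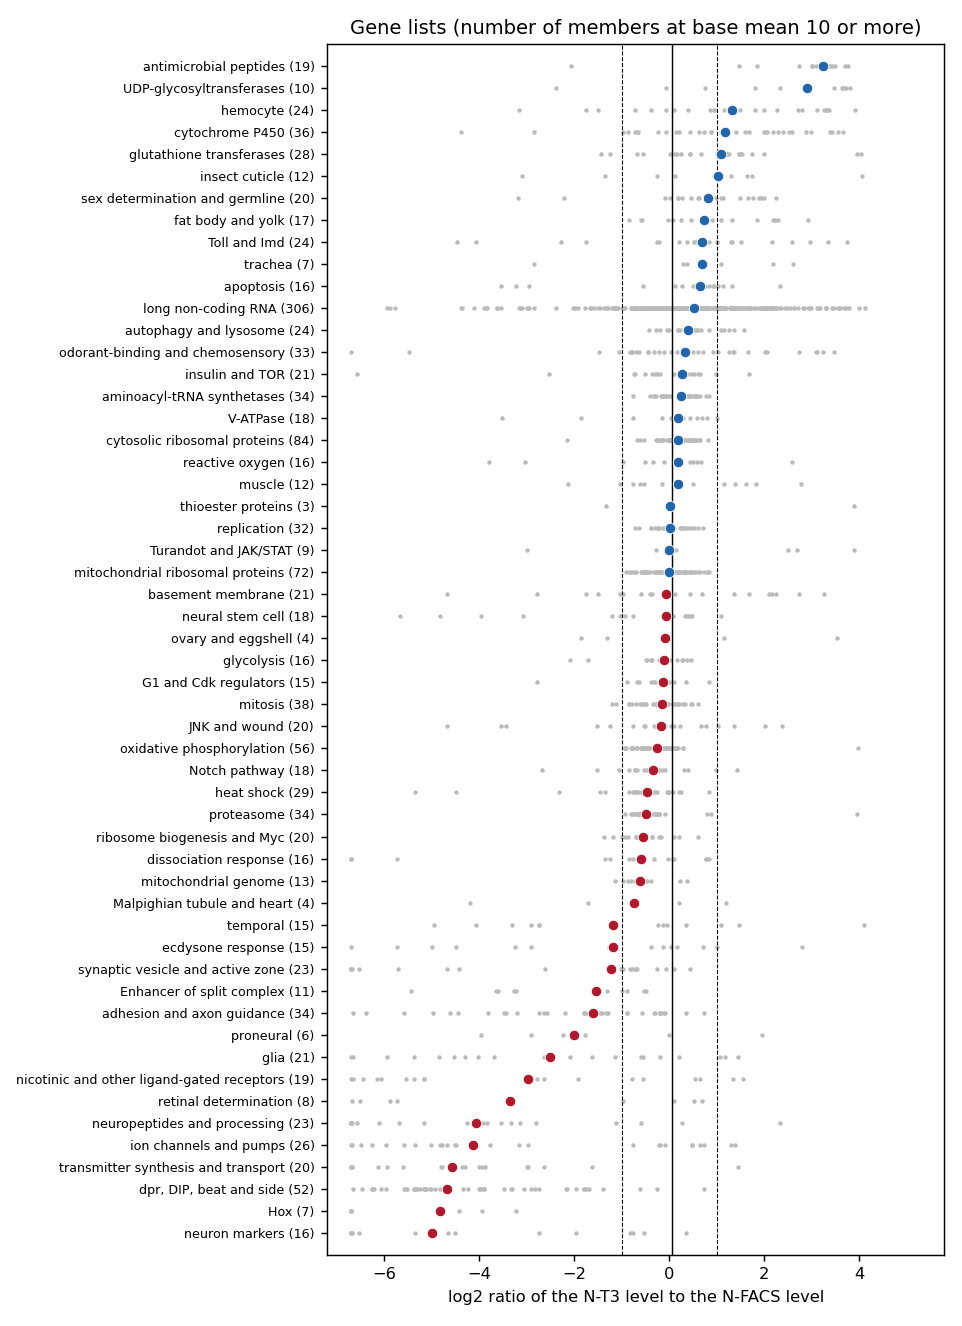
For each gene list with at least 3 members at base means of 10 or more, grey points give the log2 ratio of N-T3 to N-FACS of each such member and the coloured point their median, blue above 0 and red below. The solid line marks the median of all genes (0.05), and the dashed lines mark 2-fold. Of the labelled lists antimicrobial peptides have the highest median (3.24) and neuron markers the lowest (-5.004).

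A few abundant transcripts gave the largest shifts in counts, which are not corrected for length. The long non-coding RNA *cherub*, which neuroblasts inherit and which accumulates in other neuroblast tumours, lies on chromosome 3R (11247631 to 11256123). It was at 768646 in N-FACS, 191167 in N-T0 and 559243 in N-T3, 3.81% and 2.78% of all counts in N-FACS and N-T3, the largest loss in counts of any gene. *lncRNA:CR33938* was at 59170 and 3973 (-3.90, range -4.02 to -3.78). The tubulin *alphaTub84B* (93422 and 53688) and the actin *Act5C* (73239 and 36027, near the limit) were among the 10 largest losses too. On the other side were *CG46301* (16755 and 77984), *Pex7*, a peroxisomal import receptor (31076 and 82546), *Non1*, a nucleolar GTPase (16448 and 67913) and *lncRNA:CR34335* on chromosome X (16529.8 and 66787). The exons of *ytr*, at 19687 and 54298, overlap those of an antisense RNA in the annotation, and the strand of the counting is not given in the sources used here.

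Among genes at base means of 300 or more, 8 of the 10 highest ratios were lower bounds set by the floor, so that their order carries no meaning. The other two were *Rsph3*, a radial spoke protein of cilia (421 and 6885, 4.03, range 3.58 to 4.14) and *CG2861* (112 and 1802, 4.01, range 3.54 to 4.06). The bounds included *lin-28*, *Tep4* and *Ugt302K1* (above), *AdamTS-B*, a secreted protease of the extracellular matrix (2122 in N-T3, under 136 in N-FACS), *Arc1* (6833, under 471), the Gag-like capsid protein that carries RNA between neurons and muscle, and *lft* (688, under 47.9). The 10 lowest ratios were all bounds near -6.7, whose order carries no meaning either. Apart from genes given above they were *hkb*, a gap-type zinc finger factor (639.9 in N-FACS), *CG31221* (1184), *trv* (1048), *Rbp6* (1419.9) and the odorant-binding *Obp44a* (4281).

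Genes that were lower tended to be longer, a feature that played no part in the comparison. The median length on the chromosome was 10.96 kb for the lower genes, 2.57 kb for the higher ones and 2.74 kb for those within 2-fold. Their exons were longer by less, with medians of 3.76, 2.00 and 2.16 kb. Of genes up to 2 kb long 4.47% were lower, of those from 10 to 20 kb 25.1%, and of those over 50 kb 49.8%, whereas the share that was higher went from 14.1% to 9.68%. These are counts over genes, which are not independent replicates, and no test was made. Of 78 genes on chromosome 4, 23.1% were lower, against 12.1% to 14.7% on the other chromosome arms. By level, 38.6% of genes with a base mean of 30 to 100 were lower and 3.86% of those of 3000 or more. The share that was higher fell too, from 23.6% to 6.54%. Of 144 genes annotated as non-coding RNA 56 were higher and 20 lower, with a median of 0.65.

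**Figure D4:**
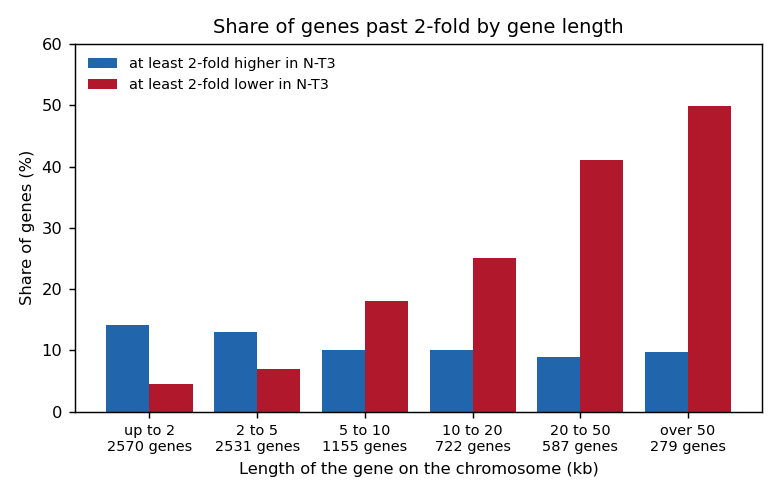
Bars give the share of genes, in percent from 0, that were at least 2-fold higher (blue) or lower (red) in N-T3, for 6 classes of length on the chromosome in kb with the number of genes in each. The share of lower genes goes from 4.47% in the shortest class to 49.8% in the longest, and that of higher genes from 14.1% to 9.68%.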

How the data were processed

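RNA-seq of N-FACS, N-T0 and N-T3 *Drosophila* tumour cells was compared, with 3 libraries in each group as the labels name them. Per the study's methods, reads were processed by the authors with STAR 2.7.5, featureCounts 2.0.1 and DESeq2 1.30.1 (R 4.0.2) on build BDGP6.32. The deposited tables hold, for each pair of groups, a base mean, which is a score on the scale of counts divided by size factors, and the authors' fold changes, standard errors, statistics and p-values, which were not used. No library's values were analysed here, so the unknown depth sets no interval.

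Each group's level was solved from the 3 base means A (N-T0 and N-FACS), B (N-T3 and N-FACS) and C (N-T3 and N-T0): the level in N-FACS is aA + B - cC, that in N-T3 is B + cC - aA and that in N-T0 is aA + cC - B. The factor a (1.02) came from 97 genes found in N-FACS alone. The factor c (1.11) was the lowest peak above a set height in the smoothed distribution of (aA + B)/C, and not its highest peak. Genes absent from N-FACS would share the value c. The smoothing width of 0.005 was chosen after a width of 0.01 had been seen. The error of c (scatter 1.16%) was widened after seeing the data, to 2.52%, which spans the c at which the median log2 ratio is 0. It was widened because the narrower error gave lower bounds, as for *Hml*, tighter than earlier known values of these data implied. The floors and bounds given here follow from the wider error. Genes at base means of 30 or more were counted past a log2 ratio of 1, and list medians used those of 10 or more. The members and the 58 lists, of whose 833 symbols 770 matched, were chosen with earlier results of these data known.

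Genes were named by rule: in each list the 3 of highest base mean and those of highest and lowest ratio, over all genes the 10 largest gains and losses in counts and the 10 highest and lowest ratios at a base mean of at least 300, and genes the study names. Not every gene that the rule picks is printed. Other named genes, those of the plot of single genes included, were chosen after their values were seen, to show members on each side. Coordinates are of BDGP6.54 (Ensembl 115), matched by gene ID. Python 3.11.15, numpy 2.4.6 and pandas 2.3.3 were used, and the solution was tested on simulated data. The alternatives tried were other minima, fold limits, factors, floors and a centring on the median.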

Additional observations from a re-analysis of the deposited data

How the results depend on the processing

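The counts moved mainly with the minimum and the fold limit. With no minimum 1608 genes were higher and 1762 lower, with a log2 limit of 0.5 the numbers were 2072 and 1822, with a fold limit of 4 276 were higher, and with a base mean of at least 100 657 were lower. Moving a or c by its error left 811 to 1134 higher and 1035 to 1098 lower. Alternatives of c chosen after seeing the data gave 1055 and 1046 (c = 1.131, the wider smoothing width), 939 and 1069 (c = 1.1105, from genes found in N-T0 alone) and 854 and 1088 (c = 1.0935, the median of all genes at 0). The median of the insect cuticle list was -0.011 with no minimum against 1.03, and 0.92 to 1.13 under the other alternatives. Of 357 genes named here or by the rule, 23 crossed the 2-fold limit under some of 8 settings of the factors and floor, among them *Act5C*, *EcR*, *Rel*, *pnt*, *stau*, *Fer2LCH*, *hth*, *hid* and *wb*, and 17 genes near 0, *dpn* included, took the other sign.

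No paired analysis was possible because the values used are means over libraries, and leaving out each replicate was not run for the same reason. The authors' standard errors were not used, so no difference here was set against biological variation. Low levels in N-T3 are less certain: for 33 genes found in N-T3 alone at base means of 3 to 10 the tables differed by a median ratio of 1.302, and low levels scattered by 0.36 to 0.90 normalized counts between tables.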
